A study of Homo sapiens with 6 samples.

Results

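The RNAs described here are 172 transcripts of the DNA damage response that were recovered with PD-L1 from MDA-MB-231 cells, an established line from a triple-negative human breast cancer. They are what is left of the authors' list of 207 DNA damage genes after 35 genes, named one by one, are set aside. Those set aside include the apical kinases ATM and ATR, BRCA1 and BRCA2, some of the Fanconi anaemia genes and further checkpoint and repair factors. Another 2 of the 37 names set aside, WEE1 and DNA2, are not on that list. Where an entry of the list held a pair of symbols, which happened in 3 entries, the first symbol was used. The members were taken by symbol and not by their values. They make up 172 of the 3152 RNAs in the authors' table of RNAs bound by PD-L1.

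In this experiment cells were fixed with formaldehyde, lysed and sonicated, and RNA was recovered on beads either with an antibody against PD-L1 (3 libraries, repeats 1 to 3) or with its IgG isotype (3 libraries, repeats 1 to 3). All 6 libraries come from MDA-MB-231 cells, and the labels name no other treatment. PD-L1 (encoded by CD274) is a surface protein that engages the receptor PD-1 on immune cells, and the IgG control gives the RNA that comes down without that specificity. Whether the repeats were separate cultures is not stated in the labels, and the p-values cover only the spread between these libraries, which may be technical. An RNA entered the authors' table only with a 5-fold or greater excess of PD-L1 over IgG. Every member was thus chosen on the very libraries compared here and in 1 direction, and a test of PD-L1 against IgG on them is a description of that selection.

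The DNA damage response is the set of pathways by which a cell detects broken, mismatched or chemically altered DNA, halts its cycle and repairs the lesion. Sensor and mediator proteins mark the lesion, kinases carry the signal, and separate machineries act on breaks, bulky adducts, damaged bases and stalled replication forks. Much of it depends on enzymes that attach or remove ubiquitin and on complexes that move or modify nucleosomes. Rapidly dividing cancer cells make heavy use of the fork-protection and recombination branches. In RNA immunoprecipitation it is the transcript of such a gene that is measured, not its protein.

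For each RNA and library the authors' table gives a score, which per the file headers adds up the scores of all peaks credited to the gene. A score of 0 stands for a gene with no scored peak. The sum can grow with the length of an RNA and the number of its peaks, so sums are given as the table has them, and a statement that one gene's level was close to or above another's rests on division by the length of the longest protein-coding transcript in GENCODE 29, as score per kilobase (kb). Orders and medians of sums describe the table and not such levels. Differences between antibodies are given on the log2(score + 1) scale with the standard error (SE) and the adjusted p of limma, a linear model fitted across all 3152 RNAs. On this scale the change of a low-scoring RNA comes out too small. The sources used here give no read totals, so the depth behind a score is unknown.

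Summed over the 172 RNAs, the scores were 13948, 14814 and 7899 in PD-L1 repeats 1, 2 and 3, against 638, 1404 and 1373 in IgG repeats 1, 2 and 3. PD-L1 repeat 3 and IgG repeat 1 were thus the lowest library of their group. The 172 RNAs held between 6.38% and 6.80% of the summed score of the table in the PD-L1 libraries, against between 7.28% and 7.64% in the IgG libraries. Of the marker genes fixed for the identity of the cells, the table holds 1 of 10 mesenchymal markers (ZEB1), 1 of 8 epithelial markers (CLDN4) and 0 of 4 immune markers. The table lists selected RNAs only, so a missing marker tells nothing about the cells.

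With PD-L1, 170 of the 172 RNAs were higher than with IgG at an adjusted p below 0.05, where 97.7% of all listed RNAs passed the same test. All 3 PD-L1 scores lay above all 3 IgG scores for 168 of the 172, where this held for 95.9% of all listed RNAs. Since the table was selected on this contrast, nothing is read from either count. The median log2 difference was 3.48 in the 172 RNAs and 3.42 in all listed RNAs. The median of the mean PD-L1 scores was 44.1 in the 172 RNAs and 31.2 in all listed RNAs, and the median of the mean IgG scores was 3.23 and 1.72 in the same order. For the 126 RNAs with an IgG score above 0, the mean PD-L1 score was 5.07 to 104.7 times the mean IgG score, with a median of 9.90. The other 46 RNAs were listed at 0 in all 3 IgG libraries, and no fold is given for them.

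The direction of these differences depends on the scaling of the libraries. When every library was rescaled to the same sum over all listed RNAs, the median log2 difference of all listed RNAs moved by -1.66, 46 of the 172 RNAs stayed higher with PD-L1, 5 were lower and 49 had a difference below 0. Of all listed RNAs, 31.4% were higher and 1.9% were lower under the same rescaling. No count below 0 is given for all listed RNAs, so the counts below 0, here and by group, are descriptions only. The median log2 difference after rescaling was 1.32 in the 172 RNAs and 1.76 in all listed RNAs. Rescaling a table that was selected for 1 direction takes away the difference common to its RNAs, so what is left compares an RNA with the rest of the table. The values below are on the authors' scale, and where the log2 difference printed for an RNA turns below 0 under rescaling, this is said beside it. After rescaling, 121 of the 172 RNAs passed the test in neither direction, and a value above 0 may be among them. Rescaling raises IgG scores above 0 but leaves a score of 0 in place, so by construction the outcome depends on how many IgG scores are 0, and the split in the plot of both scalings is a description and no test. Of the 46 RNAs at 0 in all 3 IgG libraries, 45 stayed higher after rescaling, and the exception was REC8. Of the 62 RNAs above 0 in 1 or 2 IgG libraries, 1 stayed higher, NFRKB. Of the 64 RNAs above 0 in all 3 IgG libraries, 0 stayed higher, 48 had a difference below 0 and 5 were lower at an adjusted p below 0.05. The median log2 difference on the authors' scale was 3.92, 3.79 and 2.82 in these groups, in the same order.

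**Figure D1:**
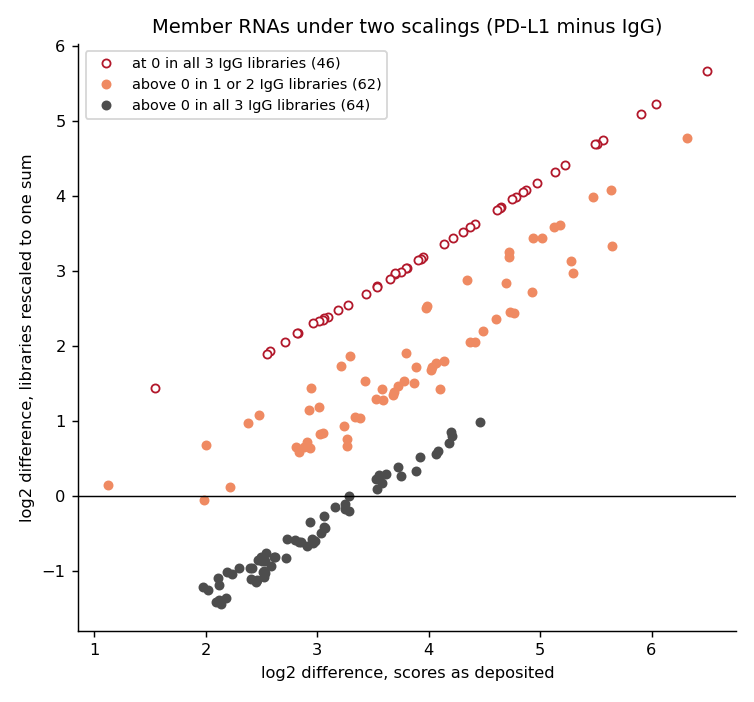
Log2 difference (PD-L1 minus IgG, on log2(score + 1)) of each of the 172 RNAs, with the scores as deposited on the x axis and with libraries brought to one common sum on the y axis. Open points are the 46 RNAs at 0 in all 3 IgG libraries, orange points the 62 above 0 in 1 or 2 IgG libraries and grey points the 64 above 0 in all 3. Below the line at 0 on the y axis lie 49 RNAs, of which 48 are grey.

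The highest sums, not divided by length, belonged to ZSWIM7, NIPBL, PDS5A, TAF1, ATRX, MYO6, HERC2, RIF1, SMC6 and SMC5, which together held 28.6% of the PD-L1 score of the 172 RNAs. Among them are SMC5 and SMC6, the core of the SMC5/6 complex, and NIPBL and PDS5A, regulators of the ring complex that holds chromosomes together. In all, 34 RNAs had a mean PD-L1 score of 100 or more, and 19 had a mean under 10. In the plot of 19 of the 20 highest RNAs, every PD-L1 score lies to the right of every IgG score of the same RNA.

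**Figure D2:**
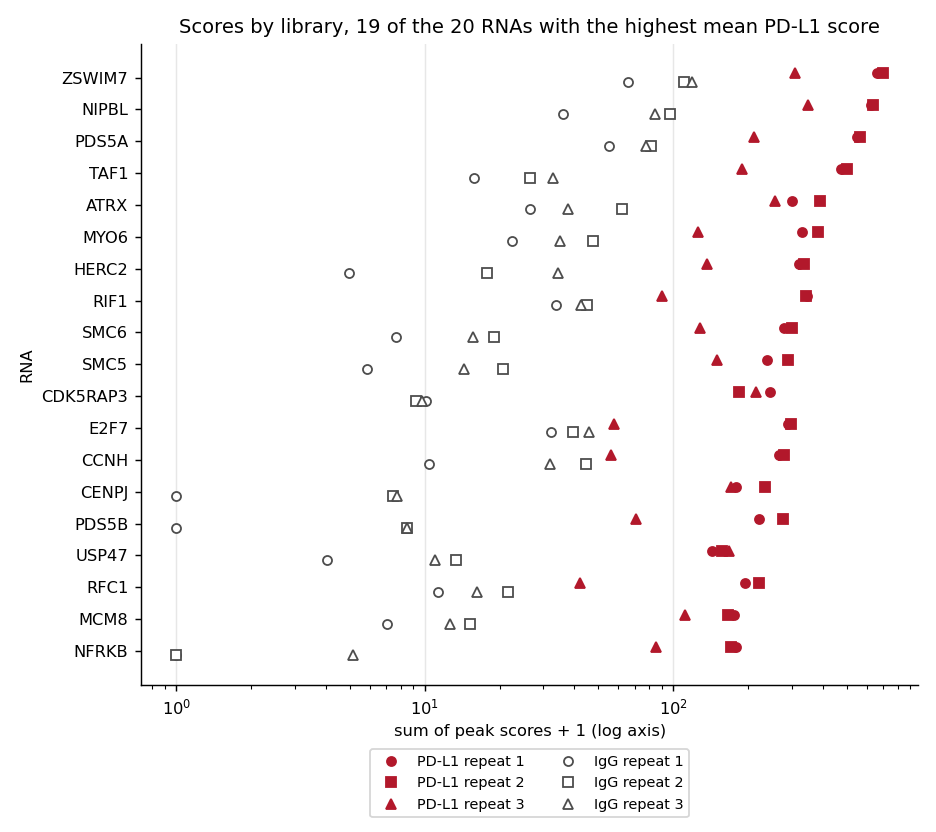
Scores of 19 of the 20 RNAs with the highest mean PD-L1 score, one RNA per line, on a log axis of score + 1. Filled red symbols are the 3 PD-L1 libraries and open grey symbols the 3 IgG libraries, with circles, squares and triangles for repeats 1, 2 and 3. The PD-L1 triangle is the lowest red symbol for most of these RNAs, including ZSWIM7 (306.7) and NIPBL (349.0).

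Homologous recombination, which repairs a break from an intact copy, had the most members. Of the 61 genes on the fixed list, 24 were in the table and 24 were higher with PD-L1. They include 21 of the 172 RNAs, with a median log2 difference of 3.29. As 97.7% of all listed RNAs were higher, nothing is read from such counts here or in the groups below. After rescaling, 8 of the 21 had a difference below 0, 6 stayed higher and 1 was lower. ZSWIM7 encodes a partner in the Shu complex, which promotes this pathway. Its scores were 657.88, 698.3 and 306.7 with PD-L1, against 64.98, 109.54 and 117.57 with IgG. The groups were far apart, although ZSWIM7 also had the highest IgG mean of the 172 RNAs. Its log2 difference was 2.45 (SE 0.46, adjusted p = 0.00275) and turned to -1.15 with the libraries rescaled. There ZSWIM7 was the 1 RNA of the group that was lower (limma adjusted p = 0.0243).

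MMS22L, which with its partner TONSL guards stalled forks, had the largest log2 difference of the 172 RNAs, 6.49 (SE 0.37, adjusted p = 5.88e-05). It scored 108.38, 116.91 and 55.73 with PD-L1 and 0 in all 3 IgG libraries. The SE thus holds no spread of IgG scores, and over the alternative fits the difference of MMS22L ranged from 5.62 to 13.12. TONSL itself scored 27.06, 31.93 and 31.0 with PD-L1, against 3.02, 9.52 and 2.57 with IgG. MMS22L thus had no scored peak with IgG and TONSL was above 0 in each IgG library, and the log2 difference of TONSL was 2.54 (SE 0.48, adjusted p = 0.00291), which turned to -0.75 with the libraries rescaled. The difference between these partners was not tested.

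RAD51B, RAD51C and XRCC2, which act in complexes that promote strand exchange, are 3 of the members. RAD51B scored 29.88, 33.87 and 17.18 with PD-L1 and XRCC2 scored 17.57, 13.61 and 4.78, and both were at 0 in all 3 IgG libraries. Their PD-L1 scores per kb were 10.4 for RAD51B, 3.91 for XRCC2 and 2.21 for RAD51C, where the median of the members was 9.12. RAD51C scored 3.03, 6.71 and 7.44 with PD-L1, against 0, 3.09 and 0 with IgG. It is 1 of the 4 RNAs whose groups overlap, because IgG repeat 2 lies just above PD-L1 repeat 1. Its log2 difference was 2.00 (SE 0.67, adjusted p = 0.025), and it missed the threshold when any 1 of PD-L1 repeats 2 and 3 and IgG repeats 1 and 3 was left out.

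Motor proteins, helicases and their partners are further members of the group. RAD54L scored 103.08, 87.22 and 77.2 with PD-L1, against 0, 4.37 and 6.18 with IgG, for a log2 difference of 4.73 (SE 0.77, adjusted p = 0.00167). Its relative RAD54B scored 110.03, 112.27 and 51.93 with PD-L1, against 3.32, 13.11 and 11.58 with IgG, for a log2 difference of 3.25 that turned to -0.17 with the libraries rescaled. Per kb the PD-L1 scores of these relatives were close, at 28.7 for RAD54L and 29.8 for RAD54B. MCM8, a helicase of recombination, scored 174.66, 165.22 and 110.8 with PD-L1, against 6.04, 14.14 and 11.58 with IgG. The helicase FBXO18, which limits recombination, scored 134.81, 142.69 and 35.1 with PD-L1, against 9.07, 19.29 and 17.23 with IgG, and its log2 difference of 2.52 turned to -1.0 with the libraries rescaled. The BLM helicase, its topoisomerase partner TOP3A and the scaffold RMI1, which together untangle joined DNA molecules, were all higher with PD-L1, with log2 differences of 3.16, 4.13 and 3.22, of which that of BLM turned to -0.15 with the libraries rescaled. HELQ, HELB and PARPBP had PD-L1 means of 31.2, 29.3 and 24.1 and were at 0 in all 3 IgG libraries. RBBP8 encodes CtIP, which starts the trimming of broken ends, and scored 74.46, 69.11 and 47.97 with PD-L1, against 0, 5.14 and 0 with IgG.

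Of the 25 genes fixed for cohesin and the related SMC complexes, the ring-shaped machines that hold and fold chromosomes, 13 were in the table and 13 were higher with PD-L1. The 7 that belong to the 172 RNAs had a median of 37.7 PD-L1 score per kb, the highest of the groups, while their median log2 difference was 2.96 and 2 of the 7 were below 0 after rescaling. NIPBL, which loads cohesin onto DNA, scored 625.91, 637.77 and 349.0 with PD-L1, against 35.05, 95.91 and 83.6 with IgG. PDS5A, a cohesin regulator, scored 550.47, 564.05 and 211.0 with PD-L1, against 54.09, 80.5 and 76.92 with IgG. Both were separated from IgG, yet the log2 differences of NIPBL (2.96, SE 0.50, adjusted p = 0.00192) and PDS5A (2.52, SE 0.48, adjusted p = 0.00299) turned to -0.63 and -1.07 with the libraries rescaled.

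PDS5B, the close relative of PDS5A, scored 220.38, 275.44 and 69.5 with PD-L1, against 0, 7.45 and 7.47 with IgG. Its log2 difference was 5.29 (SE 1.00, adjusted p = 0.003) on the authors' scale. After rescaling it was 2.97 and did not pass (adjusted p = 0.222). Among the 126 RNAs with an IgG score above 0, only NFRKB stayed higher under rescaling. SMC5 scored 238.17, 288.67 and 148.7 with PD-L1, against 4.84, 19.54 and 13.38 with IgG. SMC6 scored 277.67, 298.35 and 127.4 with PD-L1, against 6.65, 17.99 and 14.66 with IgG. The SMC5 and SMC6 proteins form 1 complex, and their RNAs had log2 differences of 4.18 (SE 0.56) and 4.07 (SE 0.52). Per kb the PD-L1 scores were 37.7 for SMC5 and 44.8 for SMC6. The other members stood lower, at 5.58 score per kb for NSMCE2 and 1.62 for ESCO2. The SUMO ligase NSMCE2 of the same complex scored 2.83, 8.16 and 9.03 with PD-L1, and the cohesin acetyltransferase ESCO2 scored 5.65, 4.36 and 9.03, both with 0 in all 3 IgG libraries.

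Checkpoint and fork-stress genes gave 12 of the 172 RNAs, and 17 of the 34 genes on that list were in the table, all 17 higher with PD-L1. The median log2 difference of the 12 was 3.16, with 5 below 0 after rescaling and 1 lower. ATRX, a chromatin remodeller of repeats and telomeres, scored 300.56, 388.19 and 256.57 with PD-L1, against 25.39, 60.94 and 36.53 with IgG, and its log2 difference of 2.98 (SE 0.41, adjusted p = 0.000862) turned to -0.60 with the libraries rescaled. The kinase TLK1 acts on the histone chaperone of replicating chromatin. TLK1 scored 121.23, 152.22 and 137.29 with PD-L1, against 0, 10.54 and 22.12 with IgG. For TLK1 the log2 difference of 4.41 (SE 1.15, adjusted p = 0.0101) missed the threshold without PD-L1 repeat 3. The phosphatase CDC25C, which lifts the brake on mitotic entry, scored 24.42, 34.79 and 12.9 with PD-L1, against 2.72, 4.37 and 6.69 with IgG, and was 1 of the 5 RNAs lower after rescaling, at -1.18.

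A pair of checkpoint members lies inside other genes. HUS1B, a relative of the checkpoint clamp subunit HUS1, has 1 exon and lies on chromosome 6 within EXOC2 on the same strand in GENCODE 29 (build GRCh38). It scored 131.23, 139.94 and 104.35 with PD-L1, against 13.29, 10.8 and 20.32 with IgG, and its log2 difference of 3.03 (SE 0.34, adjusted p = 0.000402) turned to -0.49 with the libraries rescaled. RPA4, a relative of a subunit of the single-stranded DNA binding protein RPA, also has 1 exon and lies on chromosome X within DIAPH2 on the same strand. It scored 80.96, 83.98 and 47.98 with PD-L1, against 0, 0 and 6.17 with IgG. DIAPH2 is in the table too and scored 6.26, 15.78 and 16.6 with PD-L1, against 3.63, 0 and 0 with IgG. EXOC2 is not in the table. How the authors assigned a peak that lies in both a member and its host is not given in the sources used here. Whether the peaks scored for such an RNA came from it or from its host thus cannot be told.

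Break-site mediators, which read or write the ubiquitin marks around a break, gave 10 of the 172 RNAs, and 14 of the 38 genes on the list were in the table, all 14 higher with PD-L1. Their median log2 difference was 3.41, and 4 of the 10 were below 0 after rescaling. HERC2, a very large ubiquitin ligase, scored 319.62, 335.11 and 135.75 with PD-L1, against 3.93, 16.71 and 33.43 with IgG. RIF1, which shields broken ends from trimming, scored 344.76, 340.97 and 89.0 with PD-L1, against 32.63, 43.98 and 41.43 with IgG. Per kb both HERC2 and RIF1 had a PD-L1 score of 17.2. The log2 difference was 4.09 (SE 0.79, adjusted p = 0.00328) for HERC2 and 2.46 (SE 0.59, adjusted p = 0.00756) for RIF1, which turned to -1.12 with the libraries rescaled. BARD1, the partner of BRCA1, scored 14.34, 17.04 and 11.3 with PD-L1, against 0, 2.57 and 0 with IgG. The kinase DYRK2 scored 5.66, 7.25 and 13.3 with PD-L1, against 0, 2.57 and 2.57 with IgG, and its log2 difference of 1.98 (SE 0.62, adjusted p = 0.020) turned to -0.05 with the libraries rescaled and missed the threshold without PD-L1 repeat 2 and without PD-L1 repeat 3.

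End joining, which ligates broken ends directly, had 8 of 22 listed genes in the table, all 8 among the 172 RNAs and 7 of them higher with PD-L1. Their median was 5.44 PD-L1 score per kb, where the median of the 171 RNAs with a length was 9.12. The core ligation factor XRCC4 scored 20.99, 23.04 and 9.38 with PD-L1 and 0 in all 3 IgG libraries, or 10.5 per kb with PD-L1. Its ligase LIG4 scored 15.35, 10.88 and 17 with PD-L1, against 0, 0 and 6.69 with IgG, or 3.45 per kb with PD-L1. LIG4 missed the threshold without PD-L1 repeat 1 and without PD-L1 repeat 3. POLL, a gap-filling polymerase, scored 91.19, 99.29 and 19.1 with PD-L1, against 0, 13.12 and 10.55 with IgG. For POLL the log2 difference of 3.38 (SE 1.20, adjusted p = 0.0313) missed the threshold without PD-L1 repeat 1 and without PD-L1 repeat 2. TDP1, which frees topoisomerase-bound ends, scored 74.4, 87.0 and 25.1 with PD-L1, against 9.36, 14.15 and 13.12 with IgG. LIG3, a ligase of single-strand breaks, scored 25.43, 19.95 and 11.9 with PD-L1, against 3.32, 4.37 and 3.6 with IgG. The log2 differences of TDP1 (2.10, SE 0.53, adjusted p = 0.00924) and LIG3 (2.02, SE 0.36, adjusted p = 0.0024) turned to -1.40 and -1.25 with the libraries rescaled, where both were lower.

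SETMAR, a histone methyltransferase fused to a transposase domain, did not pass the test. It scored 0, 1.81 and 12.22 with PD-L1, against 0, 2.57 and 0 with IgG. PD-L1 repeat 3 supplied most of its score and the groups overlap. For SETMAR the log2 difference was 1.13 (SE 1.04, adjusted p = 0.322). The other RNA that did not pass was REC8, the meiotic cohesin subunit, which scored 0, 0 and 23.9 with PD-L1 and 0 in all 3 IgG libraries, with a log2 difference of 1.55 (SE 1.28, adjusted p = 0.274). MOAP1, a partner of the cell death protein BAX, completes the 4 RNAs whose groups overlap, at 8.88, 3.99 and 15.8 with PD-L1, against 0, 0 and 4.89 with IgG. It passed with a log2 difference of 2.38 (SE 0.85, adjusted p = 0.0317) and missed the threshold when any 1 of PD-L1 repeats 1 and 3 and IgG repeats 1 and 2 was left out.

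Nucleotide excision repair, which cuts out bulky lesions, gave 9 of the 172 RNAs, with 10 of 39 listed genes in the table and 10 higher with PD-L1. Their median log2 difference was 2.80, the lowest of the fixed groups, and 5 of the 9 were below 0 after rescaling. CCNH, the cyclin of the kinase module of the repair and transcription factor TFIIH, scored 266.33, 277.92 and 55.2 with PD-L1, against 9.37, 43.46 and 30.87 with IgG. For CCNH the log2 difference of 2.72 (SE 0.85, adjusted p = 0.0196) turned to -0.82 with the libraries rescaled, and missed the threshold without PD-L1 repeat 1 and without PD-L1 repeat 2. CUL4A, the scaffold of a damage-site ubiquitin ligase, scored 97.26, 125.0 and 35.6 with PD-L1, against 15.72, 15.95 and 16.21 with IgG. For CUL4A the log2 difference of 2.18 (SE 0.51, adjusted p = 0.0068) turned to -1.35 with the libraries rescaled. DTL, a substrate receptor of the same kind of ligase, scored 100.3, 112.86 and 45.71 with PD-L1, against 0, 6.43 and 5.4 with IgG, and its log2 difference of 4.49 (SE 0.86, adjusted p = 0.00315) was 2.20 after rescaling, where it did not pass (adjusted p = 0.314). The damage sensor XPC scored 45.63, 54.42 and 36.7 with PD-L1, against 3.93, 8.48 and 5.14 with IgG, and its log2 difference of 2.80 turned to -0.58 with the libraries rescaled. The transcription-coupled repair factor ERCC8 had a PD-L1 mean of 20.9 and was at 0 in all 3 IgG libraries. GTF2H2 of TFIIH scored 3.23, 8.16 and 6.2 with PD-L1 and its copy GTF2H2C_2 scored 11.31, 17.23 and 15.41, both with 0 in all IgG libraries. These copies are nearly identical in sequence, so the split of reads between them is uncertain.

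Mismatch repair, which corrects replication errors, had 3 of 8 listed genes in the table, all among the 172 RNAs and all 3 higher with PD-L1. MLH3, a subunit of a nicking complex, scored 63.58, 66.59 and 18.8 with PD-L1, against 0, 6.68 and 3.86 with IgG. PMS2, also of a nicking complex, scored 16.75, 15.41 and 5.84 with PD-L1 and 0 in all IgG libraries, and PMS2 has pseudogene copies that can take or lend reads. Base excision repair gave 1 of the 172 RNAs, the glycosylase MBD4, at 16.95, 20.85 and 6.02 with PD-L1 and 0 in all 3 IgG libraries. Of the 28 genes on that list, 4 were in the table.

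Translesion synthesis, by which polymerases copy past damage, had the largest median log2 difference of the groups, 4.78 over 7 RNAs. Of the 22 listed genes 8 were in the table, all 8 higher with PD-L1. After rescaling 0 of the 7 were below 0, and 4 of the 7 stayed higher. These are POLI, ATAD5, POLN and UBE2W, each at 0 in all 3 IgG libraries. The ubiquitin ligase RAD18, which switches polymerases at a stalled fork, scored 80.85, 81.24 and 87.29 with PD-L1, against 0, 4.88 and 2.57 with IgG. POLI, a translesion polymerase, scored 68.61, 66.67 and 21.4 with PD-L1, and ATAD5, which unloads the sliding clamp, scored 31.28, 55.67 and 27.6. PRIMPOL, a primase that restarts synthesis beyond a lesion, scored 25.43, 32.84 and 35.19 with PD-L1, against 0, 2.83 and 0 with IgG. POLH, the polymerase that copies past ultraviolet damage, scored 25.43, 29.79 and 19.5 with PD-L1, against 0, 7.2 and 2.57 with IgG.

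Repair of alkylated bases was represented by 4 RNAs of 10 listed genes, all 4 higher with PD-L1 and with a median log2 difference of 4.56. The helicase ASCC3, which opens DNA for the demethylase ALKBH3 and also clears stalled ribosomes, scored 101.72, 112.28 and 79.67 with PD-L1, against 0, 6.69 and 0 with IgG, for a log2 difference of 5.63 (SE 0.85, adjusted p = 0.00121). Its partner ASCC2 scored 20.8, 31.93 and 17.37 with PD-L1, against 0, 0 and 2.32 with IgG. ALKBH8, which modifies transfer RNA, and ALKBH1 were at 0 in all IgG libraries, with PD-L1 means of 35.8 and 7.56.

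The replication machinery gave 8 of the 172 RNAs, with 13 of 49 listed genes in the table, all 13 higher with PD-L1 and 3 of the 8 below 0 after rescaling. In each of the 8, PD-L1 repeat 3 lay below both other PD-L1 repeats, as in 73.8% of the 172 RNAs and 63.8% of all listed RNAs. RFC1, the large subunit of the clamp loader, scored 193.99, 220.57 and 41.2 with PD-L1, against 10.27, 20.57 and 15.18 with IgG, and its log2 difference of 2.95 (SE 0.71, adjusted p = 0.00753) turned to -0.57 with the libraries rescaled. TICRR, needed to fire replication origins, scored 57.53, 67.29 and 52.72 with PD-L1 and 0 in all IgG libraries, for a log2 difference of 5.90 (SE 0.27, adjusted p = 5.44e-05). POLA1, which starts new strands, scored 53.5, 70.61 and 33.5 with PD-L1, against 0, 6.17 and 7.72 with IgG.

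The p53 axis and its arrest and death genes gave 8 of the 172 RNAs, with 15 of 75 listed genes in the table, all 15 higher with PD-L1 and 2 of the 8 below 0 after rescaling. The p53 protein of MDA-MB-231 is a mutant form, as background. TAF1, a subunit of the general transcription factor TFIID, scored 471.26, 497.25 and 188.5 with PD-L1, against 14.8, 25.46 and 31.65 with IgG, for a log2 difference of 3.89 (SE 0.51, adjusted p = 0.000741). E2F7, a repressor of replication genes, scored 289.7, 296.1 and 56.8 with PD-L1, against 31.13, 38.58 and 44.77 with IgG. PD-L1 repeat 3 of this RNA lay just above IgG repeat 3. For E2F7 the log2 difference of 2.14 (SE 0.70, adjusted p = 0.023) turned to -1.44 with the libraries rescaled, and it missed the threshold when any 1 of PD-L1 repeats 1 and 2 and IgG repeats 1 and 2 was left out. The deacetylase SIRT1 scored 138.39, 135.2 and 89.6 with PD-L1, against 3.32, 15.69 and 14.15 with IgG. MDM4 and MDM2, both inhibitors of p53, had log2 differences of 3.07 and 3.34, of which that of MDM4 turned to -0.43 with the libraries rescaled and that of MDM2 missed the threshold without PD-L1 repeat 1 and without PD-L1 repeat 2.

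Chromatin factors gave 10 of the 172 RNAs, all 10 higher with PD-L1, while 29 of the 113 listed genes were in the table, all 29 higher. Their log2 differences spread widely, with a median of 4.30 and 4 of the 10 below 0 after rescaling. NFRKB, a subunit of the INO80 remodeller, scored 177.79, 169.55 and 84.1 with PD-L1, against 0, 0 and 4.12 with IgG. Its mean PD-L1 score was 104.7 times its mean IgG score, the highest ratio of the 126 that could be formed, and its log2 difference was 6.32 (SE 0.74, adjusted p = 0.000473). INO80, the motor of that complex, scored 99.71, 100.0 and 61.95 with PD-L1, against 0, 2.57 and 2.06 with IgG, for a log2 difference of 5.28 (SE 0.57, adjusted p = 0.00033). The subunits INO80D and UCHL5 of the same complex had log2 differences of 4.72 and 3.87. These 4 subunits were grouped after their values were seen. UCHL5 missed the threshold without PD-L1 repeat 1 and without PD-L1 repeat 2. EPC2, a scaffold of an acetyltransferase complex, scored 54.92, 68.36 and 80.11 with PD-L1, against 0, 0 and 2.57 with IgG. At the other end ASH2L, a subunit of histone methyltransferase complexes, scored 17.56, 28.65 and 5.13 with PD-L1, against 3.32, 2.83 and 2.32 with IgG. For ASH2L the log2 difference of 1.98 (SE 0.61, adjusted p = 0.0191) turned to -1.21 with the libraries rescaled and missed the threshold when any 1 of PD-L1 repeats 1 and 2 and IgG repeat 3 was left out.

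Ubiquitin and SUMO enzymes gave 9 of the 172 RNAs, all 9 higher with PD-L1, and 34 of the 86 listed genes were in the table, 33 of them higher. The median log2 difference of the 9 was 4.73, with 1 below 0 after rescaling. The deubiquitinase USP47 scored 142.4, 156.0 and 166.6 with PD-L1, against 3.02, 12.35 and 10.03 with IgG. The deubiquitinase USP16 scored 150.82, 136.4 and 88.0 with PD-L1, against 0, 12.86 and 5.66 with IgG. CUL5, the scaffold of a ubiquitin ligase, scored 71.8, 64.68 and 58.4 with PD-L1 and 0 in all IgG libraries, for a log2 difference of 6.04 (SE 0.26, adjusted p = 5.44e-05). RPS27A, which encodes ubiquitin fused to a ribosomal protein, scored 70.99, 81.02 and 15.0 with PD-L1 and 0 in all IgG libraries, and its processed pseudogenes make the count of its reads uncertain. FBXW7, the substrate receptor that sends cyclin E to the proteasome, scored 53.33, 34.31 and 70.7 with PD-L1, against 0, 6.43 and 0 with IgG.

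RNA processing factors on the authors' list link transcripts to genome stability. Of the 45 genes on the fixed list, 12 were in the table, all 12 higher with PD-L1, and 4 belong to the 172 RNAs, 2 of them below 0 after rescaling. AQR, a helicase of the spliceosome, scored 117.08, 122.4 and 42.36 with PD-L1, against 6.64, 13.11 and 9.01 with IgG, and its log2 difference of 3.06 turned to -0.41 with the libraries rescaled. SMG1, the kinase that starts nonsense-mediated decay, scored 146.91, 153.84 and 11.3 with PD-L1, against 0, 5.66 and 8.75 with IgG. PD-L1 repeat 3 of SMG1 was close to the IgG range. For SMG1 the log2 difference of 4.03 (SE 1.31, adjusted p = 0.023) missed the threshold when any 1 of PD-L1 repeats 1 and 2 and IgG repeat 1 was left out. TRIP13, placed on this list although it remodels checkpoint proteins, scored 10.3, 11.79 and 7.79 with PD-L1 and 0 in all IgG libraries.

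Stress kinases and growth signalling gave 9 of the 172 RNAs, all 9 higher with PD-L1, and 25 of 68 listed genes were in the table, all 25 higher. Their median log2 difference was 3.01, with 3 of the 9 below 0 after rescaling. ZFYVE26, a lipid-binding protein of endosomes, scored 140.9, 151.32 and 31.5 with PD-L1, against 0, 6.69 and 9.25 with IgG. BOD1L1, which protects forks from degradation, scored 120.52, 117.71 and 44.1 with PD-L1, against 6.65, 23.39 and 22.38 with IgG. For BOD1L1 the log2 difference of 2.41 (SE 0.64, adjusted p = 0.011) turned to -1.10 with the libraries rescaled and missed the threshold without PD-L1 repeat 2. FOXN3, a transcriptional repressor tied to checkpoints, scored 33.51, 31.55 and 38.26 with PD-L1, against 4.53, 3.86 and 9.78 with IgG, and its log2 difference of 2.42 turned to -0.95 with the libraries rescaled.

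Another 42 of the 172 RNAs are on no fixed list and were placed in 7 groups after their names and values were seen. MYO6, an actin motor, scored 329.83, 379.94 and 124.81 with PD-L1, against 21.46, 46.55 and 33.96 with IgG, and its log2 difference of 2.91 (SE 0.54, adjusted p = 0.00283) turned to -0.66 with the libraries rescaled. CENPJ, which builds centrioles, scored 178.37, 232.61 and 169.3 with PD-L1, against 0, 6.43 and 6.69 with IgG, for a log2 difference of 5.64 (SE 0.84, adjusted p = 0.00117). CINP, a partner of checkpoint and cell cycle kinases, scored 37.14, 40.62 and 56.88 with PD-L1 and 0 in all IgG libraries. CDK5RAP3, named for its binding to a regulator of the kinase CDK5, scored 244.9, 183.5 and 214.4 with PD-L1, against 9.07, 8.23 and 8.75 with IgG. Subunits of the CCR4-NOT complex, which shortens the tails of messenger RNAs, numbered 4 (CNOT4, CNOT6L, CNOT10 and CNOT7), with PD-L1 means between 33.6 and 64.5 and log2 differences of 3.62, 3.55, 4.69 and 3.58. The NF-kappa-B signalling genes IKBKE, TANK and TRAF6 had log2 differences of 2.53, 3.53 and 3.98, of which that of IKBKE turned to -0.86 with the libraries rescaled and missed the threshold without PD-L1 repeat 1 and without PD-L1 repeat 2. The groups of further p53 cofactors, chromatin factors, repair enzymes and cell cycle factors held 11, 5, 11 and 6 RNAs.

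**Figure D3:**
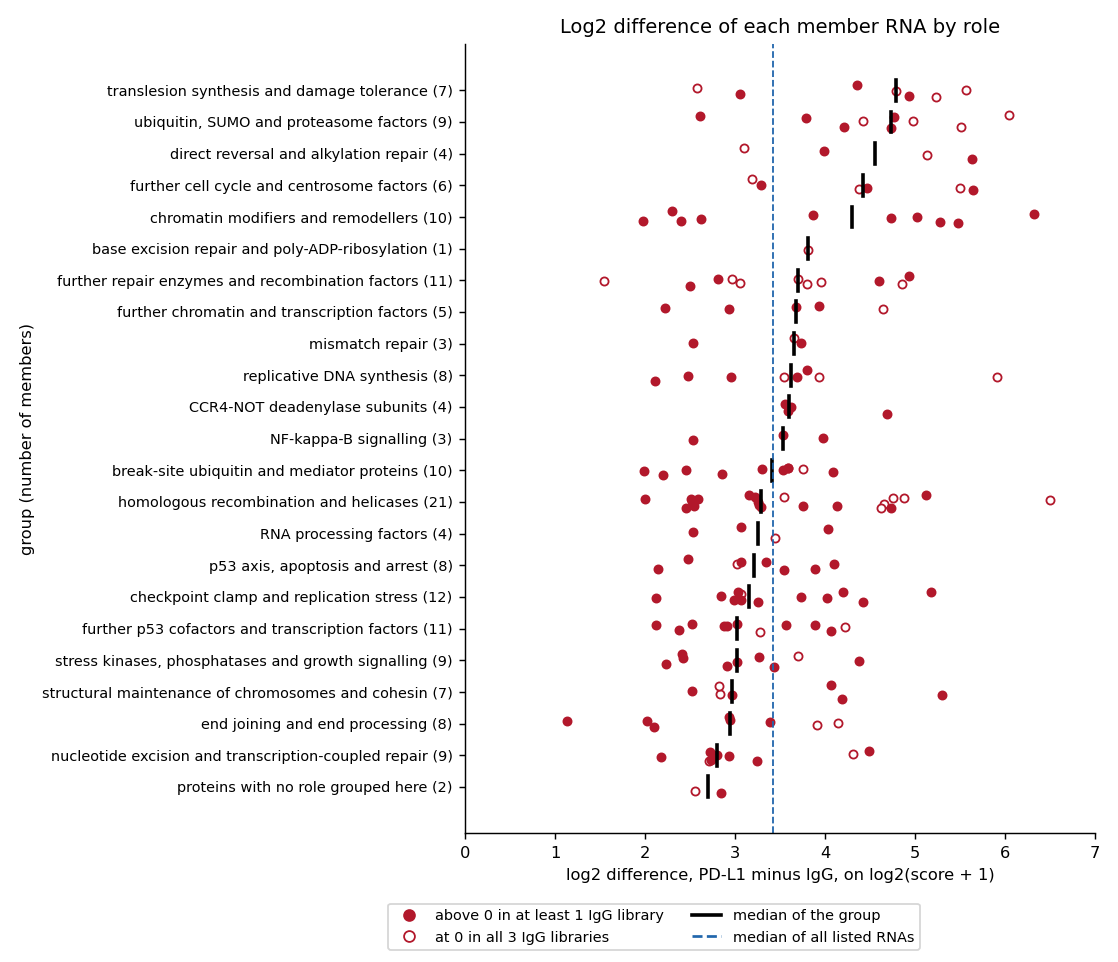
Log2 difference (PD-L1 minus IgG, on log2(score + 1)) of each of the 172 RNAs, with 1 line per group and the number of its members in brackets. Open points were at 0 in all 3 IgG libraries, filled points were not, black bars are group medians and the dashed line is the median of all listed RNAs (3.42). The translesion synthesis group has the highest median (4.78) and SETMAR, among the end joining genes, the lowest value (1.13); no test between groups was made.

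Over the 17 fixed lists together, 235 of 738 genes were in the table, of which 130 belong to the 172 RNAs. Of the 235, 233 were higher with PD-L1, where 97.7% of all listed RNAs were. All these counts follow the authors' selection. Only 2 list genes in the table are telomere factors, TEP1 and TERF1, and neither is among the 172 RNAs.

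Divided by transcript length, the order of the RNAs shifted. The 171 RNAs with a transcript in GENCODE 29 had a median of 9.12 PD-L1 score per kb, and all 3145 listed RNAs with a transcript had a median of 8.08. ZSWIM7 was the highest at 276.0 score per kb, followed by HUS1B at 122.1, CDK5RAP3 at 108.5, CCNH at 83.6, PDS5A at 61.6 and RPS27A at 52.0. ZSWIM7 and PDS5A were also among the 10 highest sums, and the other 4 were not. At the low end stood STXBP4 and UBE2W at 0.60 and 0.61 score per kb. No error is given for these levels beyond the library scores above, and neighbours in the order are not taken to differ.

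The PD-L1 libraries did not rank the RNAs alike. Across the 172 RNAs, PD-L1 repeats 1 and 2 had a Spearman correlation of 0.983, repeats 1 and 3 one of 0.811 and repeats 2 and 3 one of 0.806, as a description across genes that share their libraries. PD-L1 repeat 3 lay below both other repeats for 127 RNAs (73.8%, against 63.8% of all listed RNAs), above both for 33 (19.2%, against 23.9%) and between them for 12. The median ratio of repeat 3 to the mean of repeats 1 and 2 was 0.62 in the 172 RNAs and 0.71 in all listed RNAs. Whether the members differ from the rest in this was not tested.

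**Figure D4:**
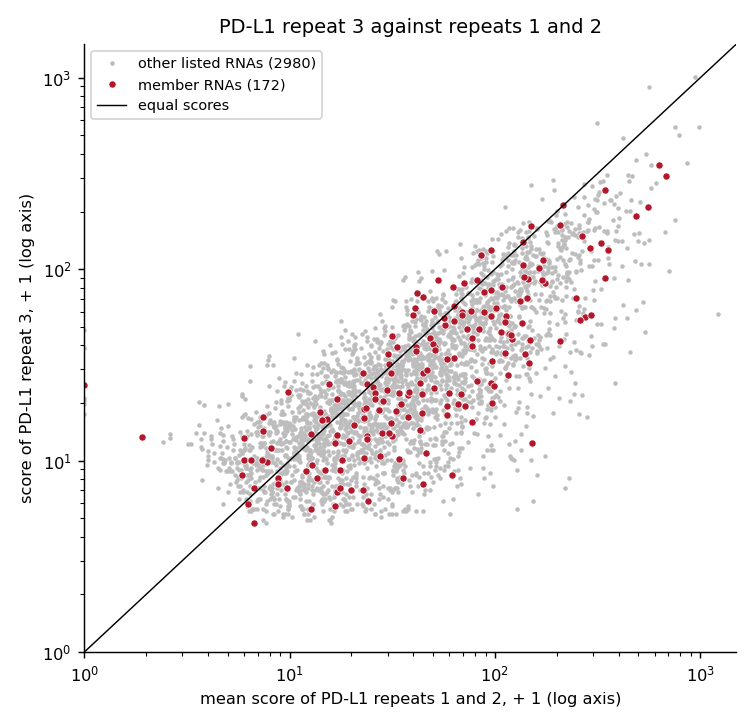
Score of PD-L1 repeat 3 against the mean score of PD-L1 repeats 1 and 2, both + 1 on log axes, for the 172 RNAs (red) and the other 2980 listed RNAs (grey). The line marks equal scores. Most red points lie below the line, with SMG1 (ratio 0.08) among the farthest below and SETMAR and REC8 above it at the left edge.

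Among the RNAs whose mean PD-L1 score reached the median of the 172, the lowest ratios belonged to SMG1 (0.08), E2F7 (0.19), RPS27A (0.20), RFC1 (0.20) and POLL (0.20). They encode a decay kinase, a repressor, a ubiquitin precursor, a clamp loader subunit and a gap-filling polymerase. The highest ratios belonged to WAC (1.81), NCOA6 (1.68), FBXW7 (1.61), RFWD3 (1.55) and CINP (1.46). WAC, an adaptor for histone ubiquitination, scored 40.6, 41.0 and 73.7 with PD-L1, against 11.49, 5.14 and 6.43 with IgG, and its log2 difference of 2.61 turned to -0.81 with the libraries rescaled. NCOA6, a coactivator of nuclear receptors, scored 52.1, 51.0 and 86.7 with PD-L1, against 0, 5.92 and 6.43 with IgG. RFWD3, a ubiquitin ligase acting on the single-stranded DNA binding protein RPA, scored 41.96, 37.72 and 61.8 with PD-L1, against 0, 3.34 and 8.23 with IgG. Without PD-L1 repeat 3, 163 of the 172 RNAs were higher with PD-L1, where 90.6% of all listed RNAs were.

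Exon number moved with both the score and this ratio. The 171 RNAs with a transcript had a median of 15 exons, where all listed RNAs had 12. Across these RNAs the Spearman correlation with exon number was 0.49 for the mean PD-L1 score and 0.36 for the mean IgG score, where it was 0.38 and 0.18 over all listed RNAs. For the log2 difference it was 0.12, where it was 0.22 over all listed RNAs. For the ratio of repeat 3 to the other PD-L1 repeats it was -0.30, where it was -0.33 over all listed RNAs. These are descriptions across genes that share the same libraries. The 44 RNAs with 1 to 10 exons had a median PD-L1 score of 17.8 and a median ratio of 0.80. The 42 RNAs with 22 to 93 exons had a median PD-L1 score of 96.8 and a median ratio of 0.48. Transcript length showed weaker correlations, at 0.295 with the mean PD-L1 score and 0.009 with the log2 difference, and GC content was at -0.062 and -0.094 with the same measures. What part exon number has in the scores was not tested.

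**Figure D5:**
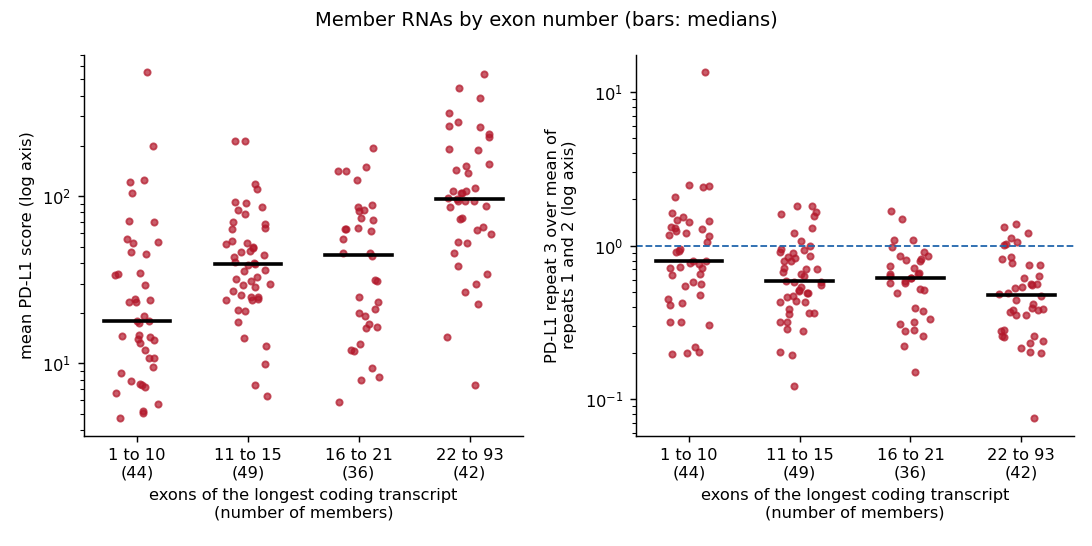
Mean PD-L1 score (left, log axis) and ratio of PD-L1 repeat 3 to the mean of repeats 1 and 2 (right, log axis) of the 171 RNAs with a transcript, in 4 classes of exon number, with the number of RNAs in brackets. Points are RNAs, bars are medians and the dashed line marks a ratio of 1. The median score was 17.8 in the class of fewest exons and 96.8 in the class of most, and the median ratio was 0.80 and 0.48.

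Several scores may hold signal from a neighbouring gene. Of the 171 RNAs placed on the genome, 59 overlap another protein-coding gene in GENCODE 29, 11 of them on the same strand, and 4 lie wholly inside another gene. These 4 are HUS1B and RPA4, described above, SETMAR within SUMF1 and POLL within DPCD. SETMAR and POLL lie on the strand opposite to their hosts, and HUS1B and RPA4 on the same strand. For 13 of the 59 the neighbour is in the table as well. BIVM-ERCC5 is a read-through transcript that contains ERCC5, and it scored 70.46, 68.31 and 83.9 with PD-L1, against 0, 2.83 and 6.69 with IgG. ERCC5 scored 89.6, 86.61 and 72.3 with PD-L1, against 0, 6.43 and 9.01 with IgG. Whether the same peaks are behind both entries is not given in the sources used here. SMC6 overlaps GEN1 and CINP overlaps ZNF839 on opposite strands, and the strand handling of the score is not given either.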

How the data were processed

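RNA from PD-L1 and IgG immunoprecipitates (3 libraries each, grouped by title) was sequenced as stranded, paired-end libraries, per the labels' protocols. Per the submitters' processing notes, the tools were HOMER 4.8.3 and TopHat2 2.0.14 with the hg19 build, with no role or order stated. The authors deposited a table of scores, each the sum of peak scores of a gene per the file headers, and a list of DNA damage genes. Read depth is not given, so no counting interval can be formed, and precision rests on 3 libraries per group.

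Scores were analysed as deposited, with limma 3.58.1 in R 4.3.3 on log2(score + 1) over all 3152 RNAs, no filter, and Benjamini-Hochberg adjustment at 0.05. The fit was checked on simulated normal values with no floor at 0 and no prior selection of RNAs. That check does not show how the fit behaves on selected scores with many zeros. The members, role lists and tests were chosen with earlier results of these data known. A rule named 62 RNAs by the highest scores within each fixed list and among all members, the largest and smallest log2 differences, failure of the test, overlap of the groups, IgG score, and the ratio of PD-L1 repeat 3 to the other repeats, with 3 to 10 RNAs for each ranking. Of these, 59 were reported and 3 are not reported here. Further RNAs named were chosen after their values were seen. Transcript length, exon number, chromosome and gene overlap came from GENCODE 29 (GRCh38, not the authors' hg19). Genes were matched by Entrez gene ID, then by symbol, for 171 of 172 RNAs. Alternatives were pseudocounts of 0.1 and 0.01, zeros set to the smallest score (1.81), libraries rescaled to one sum, a minimum mean score of 10, a mean-variance trend, a replicate block and each library left out in turn. The authors' Gene Ontology table was not used here. No sequence is shown, because peak positions are not given in the files used.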

Additional observations from a re-analysis of the deposited data

How the results depend on the processing

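The count of 170 RNAs higher with PD-L1 was 170 with zeros set to the smallest score, with a mean-variance trend and with the replicate block. It was 153 and 131 with pseudocounts of 0.1 and 0.01, and 149 to 168 with 1 library left out. Of all 3152 listed RNAs, 3078 were higher in the main fit and 2798 and 2298 with these pseudocounts. With 1 library left out, 2730 to 3032 of the 3152 were higher. With a minimum mean score of 10, all 130 RNAs kept were higher, as were 2093 of the 2121 listed RNAs kept. The median log2 difference of 3.48 moved to 4.87 and 6.11 with the pseudocounts of 0.1 and 0.01, since these stretch the distance from 0, and ranged from 3.06 to 3.67 with 1 library left out. The count of 168 separated RNAs was 168 to 169 with 1 library left out, where it cannot fall by construction. Rescaling the libraries left 46 higher, 64 separated and a median of 1.32, since by construction it removes the difference common to the table. Over all listed RNAs, rescaling left 990 of 3152 higher and a median of 1.76. No count of separated RNAs is given for them, so nothing is read from the 64. Under it 20 of the 59 RNAs that were named by the rule and reported turned below 0: ZSWIM7 -1.15, NIPBL -0.63, PDS5A -1.07, ATRX -0.60, MYO6 -0.66, RIF1 -1.12, E2F7 -1.44, CCNH -0.82, RFC1 -0.57, HUS1B -0.49, FBXO18 -1.0, BOD1L1 -1.10, AQR -0.41, CUL4A -1.35, TDP1 -1.40, WAC -0.81, FOXN3 -0.95, LIG3 -1.25, ASH2L -1.21 and DYRK2 -0.050. Further RNAs that were named outside the rule also turned below 0, CDC25C among them, and this is said beside their values. The same-numbered libraries had correlations of their deviations of -0.121, 0.071 and -0.079, and PD-L1 repeats 1 and 3 correlated best with an IgG library of another number, so the replicate block rests on numbers alone. Which scaling is right could not be decided without read totals, and depth limits every low score: a library with fewer reads may score no peak.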

Other observations

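The table holds a further gene of RNA and DNA hybrid removal under an altered symbol. RNASEH2B, a subunit of the enzyme that removes ribonucleotides from DNA, is listed as R0SEH2B, with the letters NA replaced by 0, and KPNA4 is listed as KP04 in the same way. RNASEH2B scored 40.56, 2.18 and 10.3 with PD-L1 and 0 in all 3 IgG libraries, for a log2 difference of 3.51 (SE 0.91, limma adjusted p = 0.00978). It is not on the authors' DNA damage list. Its 3 PD-L1 scores differ more from each other than those of most RNAs described above, and PD-L1 repeat 1 supplies most of the sum.

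Symbols in the table start with a blank except for 54, and these 54 behave unlike the others. They include 4 of the 172 RNAs, SETMAR, REC8, MOAP1 and DYRK2, of which 2 passed the test. The other 168 of the 172 RNAs all passed. PD-L1 repeat 3 lay above both other PD-L1 repeats for 40 of the 54 (74.1%), against 23.1% of the 3098 symbols with a blank. The median of the mean PD-L1 scores was 7.65 in the 54 and 31.9 in the others. Higher with PD-L1 were 29 of the 54, against 3049 of the 3098. Of the 4 RNAs whose groups overlap, 3 are among them, and the other is RAD51C.

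The entry BACH1 of the authors' list scored 89.9, 99.5 and 124.6 with PD-L1, against 10.28, 21.35 and 23.41 with IgG, for a log2 difference of 2.51 (SE 0.40, limma adjusted p = 0.0015) that turned to -1.01 with the libraries rescaled. BACH1 is the symbol of a transcription regulator, and it is also an older name of the helicase gene BRIP1, which is on the list separately as a pair of both symbols. Which of these genes the entry was meant for is not given in the sources used here.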
